A study of Equus caballus with 33 samples.

Results

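The data described here are the signals of 313 microRNA precursor genes on an equine gene expression array, out of 16661 genes that a single-symbol probe set represented. The members are all symbols that begin with MIR and a digit or with MIRLET7, apart from the miR-29 precursors, each represented by its probe set of highest mean signal over the 33 arrays. They were drawn from 323 probe sets, and 3 symbols had more than 1 of them. A further 15 probe sets that carry several symbols, at least 1 of them a microRNA, were left out. The rule used names and overall signal, and no difference between groups, but it was chosen with earlier results of these data known.

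The samples were explants of articular cartilage from the distal metacarpal bone of 3 horses, taken after death from joints without evidence of disease. Every explant first spent 48 h in culture medium. Stimulated explants then received 10 ng/mL of recombinant equine interleukin-1β (IL-1β), a cytokine of inflamed joints, while unstimulated wells got medium alone. Harvests of both kinds took place 3, 9, 15, 21 and 27 days later, and day 0 has unstimulated tissue only, which makes 11 groups of 3 arrays. No genotype or age is given in the labels, and each RNA sample came from a pair of explants. Cells were released by trypsin and collagenase before the RNA was extracted. The group sizes limit the precision of every value below.

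A microRNA is transcribed as a long primary transcript, either from its own promoter or within another gene, which Drosha and DGCR8 cut in the nucleus to a hairpin precursor. Exportin-5 carries the hairpin to the cytoplasm, where Dicer cuts it to the mature strand that an Argonaute protein uses to repress matching messenger RNAs. In cartilage, miR-140 is the microRNA best known for chondrocyte development, and miR-146a, miR-155, miR-21, miR-221 and miR-222 are studied as parts of the response to inflammation. The column purification used here keeps few RNAs as short as a mature microRNA. A signal can come from the primary transcript, the hairpin or a host transcript that spans it, and these cannot be told apart here.

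The median log2 signal of an array was 5.16 to 5.38, and arrays within a group correlated at 0.960 to 0.989. Replicate 3 of the unstimulated group at day 27 stood apart on the second principal component, which held 8.42% of the variance. The labelled tissue was checked against 10 chondrocyte markers. Their mean log2 signal was 8.62 to 9.22 in the 15 unstimulated arrays of days 3 to 27 and 6.49 to 8.12 in the 15 stimulated arrays, so that the groups did not overlap. Of these markers 6 were lower with IL-1β and 0 were higher, with a median difference of -1.23. The mean of 11 macrophage and monocyte markers was 4.84 to 5.34 in stimulated and 4.65 to 4.94 in unstimulated arrays, and the groups overlapped. Of these markers 2 were higher, 1 was lower and 8 did not pass, with a median difference of -0.08. Of the synovial and fibroblast markers 4 were higher and 3 lower among 10, of the lymphocyte markers 2 and 2 among 10, of the endothelial markers 0 and 3 among 8, and of the osteoblast markers 0 and 2 among 5. Their mean signals overlapped between the groups as well. Among the microRNAs known as markers of other cells, 0 of 6 of blood cells, 0 of 14 of neurons and 0 of 1 of endothelium passed the average comparison, against 1 of 9 of muscle and 1 of 6 of epithelium, which were MIR133A and MIR205. Of all probe sets, 15.6% were higher and 15.3% lower in that comparison, and 12.9% of those at or below the median signal passed. These small counts do not tell the cell types apart. In bulk tissue, fewer cells of a type and less RNA per cell cannot be told apart, and the part of these shifts in the results below was not tested.

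Most precursor probe sets gave low signals. The mean signal of a member ranged from 2.12 to 10.9 on the log2 scale, with quartiles of 2.73, 3.54 and 5.14, whereas the quartiles of all 25923 probe sets were 3.63, 5.27 and 7.18. Only 71 members (22.7%) lay above the median of all probe sets. Signals of different probe sets depend on their probes and do not rank amounts of RNA, and detection above background was not assessed. The 8 members of highest signal were MIR632, MIR221, MIR671, MIR328, MIR421, MIR1902, MIR125B-2 and MIR761, with means from 7.97 to 10.9.

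The question the design puts is what IL-1β does to expression at each time. On average over the 5 days, the precursors of miR-222 and miR-221, miR-103, miR-21, miR-101-1 and miR-365-1 were higher with IL-1β, and those of miR-421, miR-374b and miR-568 were lower. Differences are stimulated minus unstimulated on the log2 scale, followed by ± and their limma standard error, with 3 arrays per group. A call is an adjusted p under 0.05 after Benjamini-Hochberg adjustment over all probe sets. Arrays of 1 replicate number at different days counted as independent in the average. Variation of the effect from one replicate number to another thus enters its error as if independent from day to day, which can understate that part. Of the 313 members, 51 passed, 26 higher and 25 lower, which is 16.3%, while 30.8% of all probe sets passed, 15.6% higher and 15.3% lower. The median difference was -0.05 over the members and -0.04 over all probe sets. At least 2-fold differences were called for 10 members, and for 4.18% of all probe sets. When the array medians were equalised the split became 29 higher and 15 lower, and after another quantile normalisation it was 32 and 18. The shares of all probe sets that passed were then 29.5% and 29.4%.

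The share of called members differed between ranges of signal, and so did that of all probe sets. Among the 118 members with a mean signal from 2 to 3, 1.69% passed, against 5.62% of all probe sets in that range. From 3 to 4 the shares were 17.9% of 67 members and 11.7% of all probe sets, and from 4 to 5 they were 22.7% of 44 members and 17.7%. From 5 to 6, 19.6% of 46 members and 27.6% of all probe sets passed. Between 6 and 8 these shares were 41.9% of 31 members and 48.2% of all probe sets, and between 8 and 11 they were 71.4% of 7 members and 60.7%. Above the median signal 32.4% of members and 48.8% of all probe sets passed. At or below it 11.6% of members and 12.9% of all probe sets did. The members' share was thus below that of all probe sets in 3 of the 6 ranges and above it in the other 3, as a description of these arrays.

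**Figure D1:**
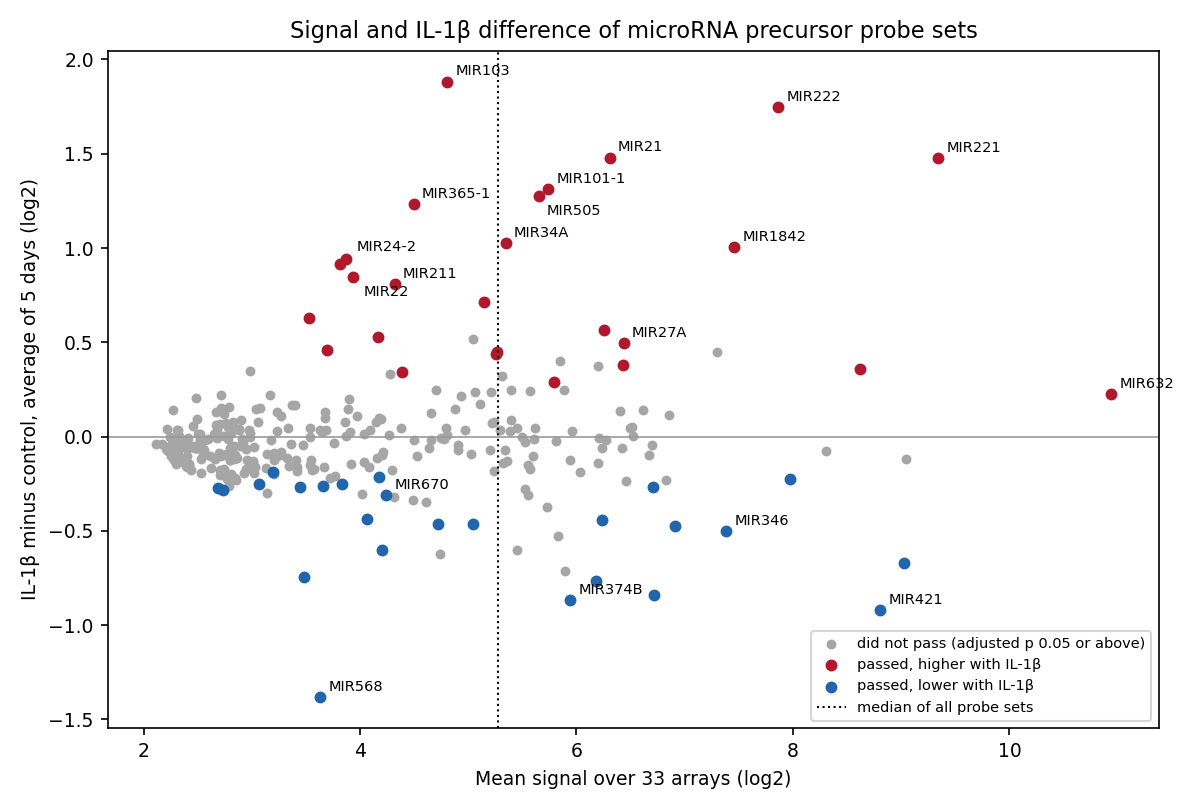
Each point is 1 of the 313 precursors, with its mean signal over 33 arrays (log2) on the horizontal axis and its IL-1β difference averaged over 5 days (log2) on the vertical axis. Red and blue points passed higher and lower, grey points did not, the dotted line is the median signal of all probe sets, 5.27, and names mark the 19 precursors called under every alternative setting.

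The call of 19 members held under each of the 13 alternative settings that tested them, and these were also the 19 that held without each replicate in turn. They were 14 higher and 5 lower precursors. The other 32 lost the call without at least 1 replicate, 16 without replicate 1, 23 without replicate 2 and 18 without replicate 3, and 0 of the 51 changed sign. With the replicate number as a block, all 51 remained called. No member's 15 stimulated arrays were all above or all below its 15 unstimulated arrays of the same days. These counts of held calls, lost calls and separated groups were not made over all probe sets. None of them is therefore shown to be particular to precursors. Without replicates 1, 2 and 3, the share of all probe sets that passed was 25.4%, 20.2% and 25.1%, in place of 30.8%.

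MIR222 and MIR221 are neighbours made from 1 transcript in human and mouse, and their mature forms repress the cell cycle inhibitor p27. MIR222 ranged from 7.90 to 9.17 in stimulated arrays with a median of 8.66, and from 4.80 to 7.98 with a median of 6.68 in unstimulated ones. Nearly all stimulated arrays were above the highest unstimulated array, and MIR222 was higher in 15 of 15 pairs matched by day and replicate. Its difference was 1.75 ± 0.19 (limma adjusted p = 1.73e-08). MIR221 ranged from 8.49 to 10.88 with a median of 10.15 with IL-1β, and from 6.60 to 10.39 with a median of 8.60 without it. The groups overlapped widely for this neighbour, since unstimulated arrays of each of the 5 days reached above the lowest stimulated array, and 13 of 15 pairs were higher with IL-1β. The difference of MIR221 was 1.48 ± 0.23 (adjusted p = 9.13e-06).

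MIR103 encodes a microRNA that lies within pantothenate kinase genes in human. It had the largest difference of any member, with values from 4.17 to 7.50 and a median of 5.67 in stimulated arrays, and from 3.07 to 5.06 with a median of 3.89 in unstimulated ones. The groups overlapped, with 14 of 15 pairs higher and a difference of 1.88 ± 0.20 (adjusted p = 2.06e-08). MIR21, whose product represses the translation inhibitor PDCD4, ranged from 6.31 to 7.79 with IL-1β and from 3.91 to 6.53 without it, with medians of 7.15 and 5.73. It was higher in 15 of 15 pairs, by 1.48 ± 0.24 (adjusted p = 1.54e-05), and only the edges of its groups overlapped.

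MIR365-1, whose mature form has been studied as a mechanically responsive microRNA of chondrocytes, had medians of 5.18 with IL-1β and 3.86 without it, in ranges of 3.86 to 6.20 and 3.25 to 4.59. All 15 pairs were higher, by 1.23 ± 0.14 (adjusted p = 6.82e-08), although the lowest stimulated arrays lay within the unstimulated range. MIR101-1, a precursor of the microRNA that represses the histone methyltransferase EZH2, ranged from 4.89 to 7.71 with a median of 6.47 in stimulated arrays and from 4.05 to 5.84 with a median of 5.08 in unstimulated ones. It was higher in 14 of 15 pairs, by 1.31 ± 0.18 (adjusted p = 1.09e-06). MIR34A, a target gene of p53, was higher in 13 of 15 pairs, by 1.03 ± 0.19 (adjusted p = 0.000133), with medians of 5.86 and 4.68 and overlapping ranges of 4.53 to 7.38 and 4.16 to 5.65.

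The other higher precursors that held under every alternative were MIR1842 at 1.01 ± 0.13, MIR505 at 1.27 ± 0.33, MIR24-2 at 0.94 ± 0.19, MIR22 at 0.84 ± 0.17, MIR27A at 0.49 ± 0.10 and MIR632 at 0.23 ± 0.05, with MIR211 at 0.81 ± 0.16. MIR505 was the most variable of them, with unstimulated values from 2.90 to 6.72 and 11 of 15 pairs higher. MIR22, studied in osteoarthritic cartilage, was higher in all 15 pairs. MIR632 has the highest signal of all members, and its small difference was also found in 15 of 15 pairs, between values of 10.93 to 11.15 and of 10.65 to 11.05. MIR1204 rose by 0.92 ± 0.23 (adjusted p = 0.00238) but was not called without replicate 2 (adjusted p = 0.114).

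Among lower precursors, MIR421 and MIR374B lie side by side in human. MIR421 ranged from 7.19 to 8.93 with a median of 8.28 in stimulated arrays and from 8.65 to 9.75 with a median of 9.12 in unstimulated ones. It was lower in all 15 pairs, by a difference of -0.92 ± 0.14 (adjusted p = 1.01e-05), with a short overlap of the groups. MIR374B had medians of 5.44 and 6.24 in ranges of 4.50 to 6.27 and 5.31 to 7.21, and its difference was -0.87 ± 0.16 (adjusted p = 0.000118). The groups overlapped, and 2 of 15 pairs went the other way. MIR568 had the largest negative difference, -1.38 ± 0.22 (adjusted p = 1.39e-05), with medians of 2.83 with IL-1β and 4.26 without it. It was uneven between replicate numbers, at -2.01, -0.49 and -1.64 for replicates 1, 2 and 3. MIR346 at -0.50 ± 0.08 and MIR670 at -0.31 ± 0.08 complete the 5.

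Further falls rested on fewer replicates. MIR214, which in human lies on the opposite strand of DNM3, differed by -0.84 ± 0.29 (adjusted p = 0.0278) and was not called without replicate 1 (adjusted p = 0.29) or replicate 2 (adjusted p = 0.0613). MIR196B, encoded within a HOX cluster, differed by -0.77 ± 0.22 and lost its call without replicate 2 (adjusted p = 0.143). MIR100, a relative of miR-99 in a cluster with let-7, differed by -0.74 ± 0.21, and its call was lost without replicate 1 (adjusted p = 0.102). The calls of MIR328, MIR194-2, MIR326, MIR551A and MIR652, at -0.67, -0.60, -0.47, -0.46 and -0.46, were each lost without replicate 2, where their adjusted p ranged from 0.056 to 0.411. Without replicate 1, MIR194-2 was also lost (adjusted p = 0.0956). Without replicate 3 the adjusted p was 0.155 for MIR328, 0.0944 for MIR551A and 0.129 for MIR652. Without the day 27 array that stood apart, MIR328 and MIR652 missed the threshold too (adjusted p = 0.0712 and 0.0501). In the muscle and epithelial lists, MIR133A at -0.27 was lost without replicate 1 (adjusted p = 0.158) and replicate 2 (adjusted p = 0.102), and MIR205 at -0.27 without replicate 2 (adjusted p = 0.084) and replicate 3 (adjusted p = 0.099).

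**Figure D2:**
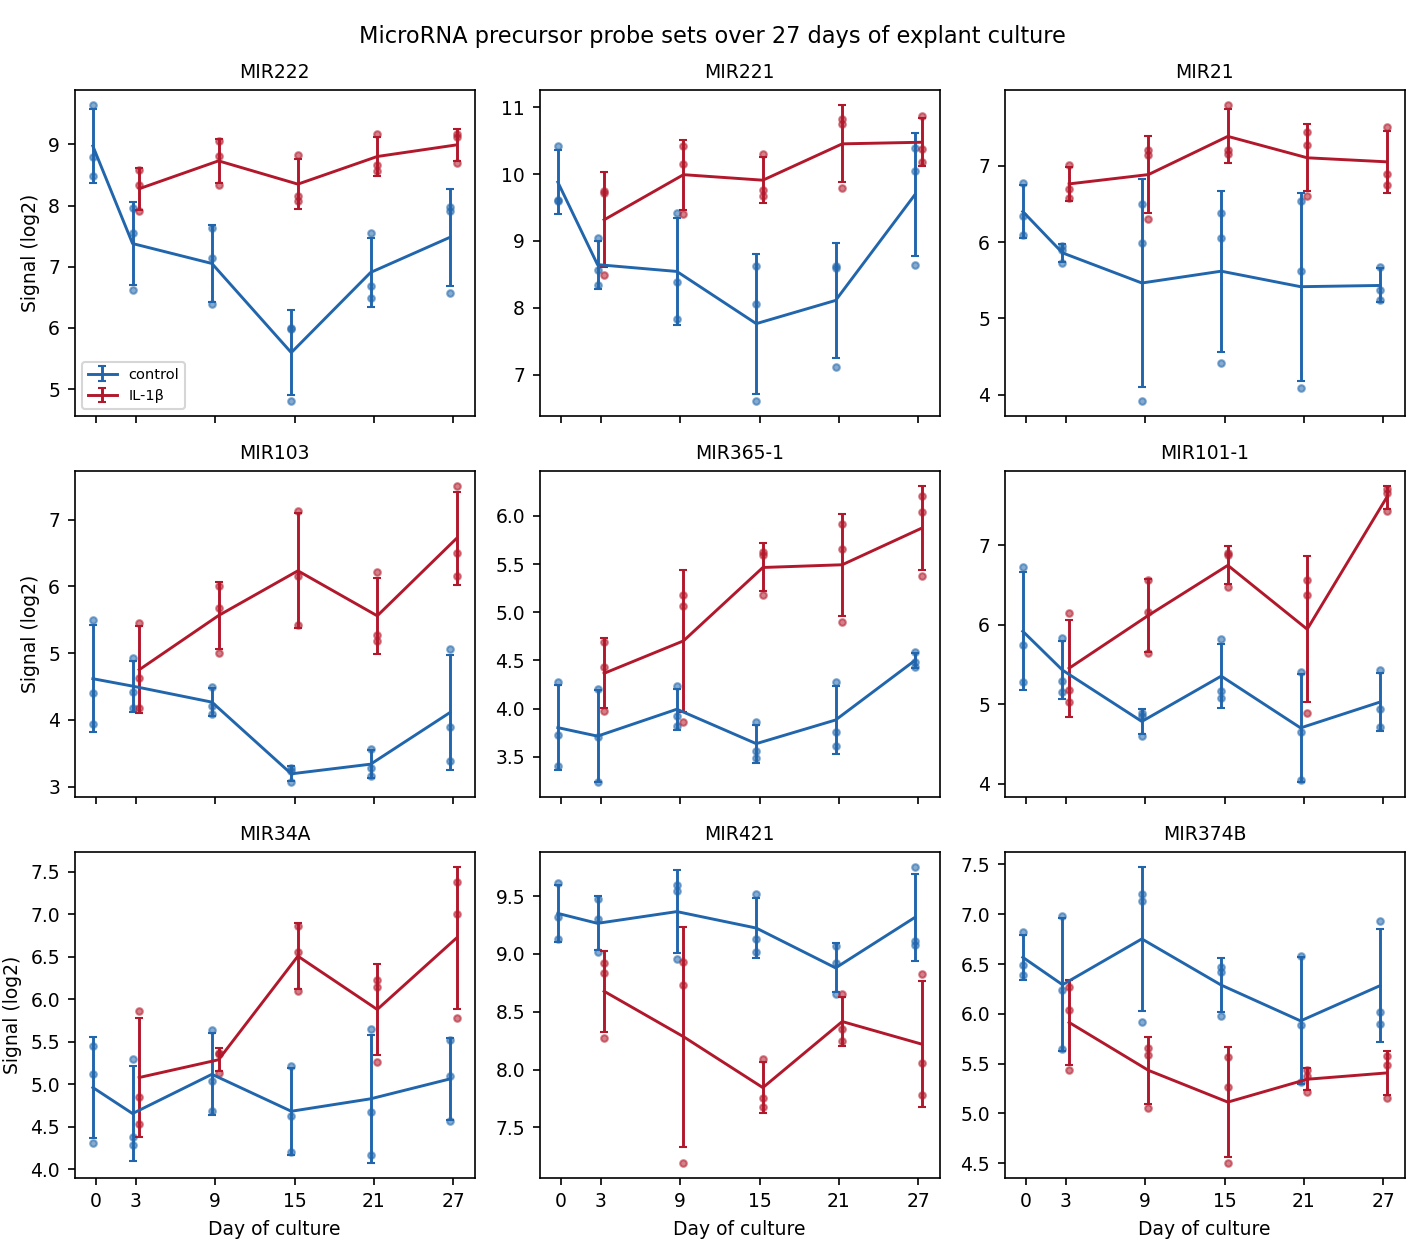
Signal (log2) of 9 precursors against day of culture, in red for stimulated and blue for unstimulated explants. Points are single arrays, lines join group means and bars are 1 SD (n = 3). At day 15 the 3 stimulated arrays of MIR222, MIR103 and MIR365-1 lie above the 3 unstimulated ones, and those of MIR421 lie below.

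Most precursors best known from inflammation did not pass, and neither did most of the 313 members, of which 16.3% passed, or most probe sets. Of 12 precursors in a list of NF-kB and inflammation microRNAs, 3 were higher, 0 were lower and 9 did not pass, with a median of -0.11, where 30.8% of all probe sets passed. The 3 were MIR21, MIR221 and MIR222. MIR146A, a feedback regulator induced by NF-kB, ranged from 4.69 to 5.56 in stimulated and from 4.12 to 5.15 in unstimulated arrays, with medians of 5.04 and 4.87. The groups overlapped widely, its difference of 0.22 ± 0.09 did not pass (adjusted p = 0.0586), and with the replicate block it did (adjusted p = 0.0402, or 0.0438 with a random block). It also passed after another quantile normalisation (adjusted p = 0.0238) and after median centring (adjusted p = 0.0275). Without replicate 1 it passed as well (adjusted p = 0.0237), whereas without replicates 2 and 3 the adjusted p was 0.383 and 0.251. MIR155, a promoter of immune cell activation, differed by -0.62 ± 0.42 (adjusted p = 0.284) with values between 2.79 and 7.20 over all arrays. MIR146B differed by -0.17 ± 0.12 (adjusted p = 0.291).

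MIR140, the cartilage-enriched precursor, had medians of 3.15 with IL-1β and 3.17 without it, and a difference of -0.13 ± 0.26 (adjusted p = 0.76). Its sign varied between replicate numbers, at 0.64, -0.88 and -0.14. In human and mouse this microRNA lies within WWP2, a ubiquitin ligase gene, which here differed by -0.38 ± 0.09 (adjusted p = 0.00212). The call of WWP2 was lost without replicate 1 (adjusted p = 0.058) and without replicate 2 (adjusted p = 0.0727). Of 29 precursors of microRNAs studied in osteoarthritis, 9 were higher, 2 were lower and 18 did not pass, with a median of 0.07, where 15.6% of all probe sets were higher and 15.3% lower. Beside MIR27A, MIR24-2, MIR22, MIR34A and MIR365-1, the higher ones were MIR30B, MIR30D, MIR30E and MIR93 at 0.63, 0.56, 0.34 and 0.53, and the lower ones were MIR214 and MIR193B. None of the 4 calls from MIR30B to MIR93 held without each replicate, with adjusted p up to 0.134, 0.148, 0.366 and 0.174, and that of MIR193B, at -0.25, reached 0.279. In the let-7 family, whose members share a seed and restrain growth, 1 of 8 precursors was higher, MIRLET7G at 0.45 ± 0.15 (adjusted p = 0.023, but 0.196 without replicate 2 and 0.174 without replicate 3).

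Precursors that share a cluster in human, or that are copies of 1 microRNA, did not always have like values. They are given side by side as a description, and those outside the naming rule were chosen after their values were seen. MIR23A, MIR27A and MIR24-2 form 1 cluster in human. MIR23A, at 0.45 ± 0.21, missed the threshold (adjusted p = 0.111), beside the higher MIR27A and MIR24-2. The copy MIR24-1 differed by 0.10 ± 0.08 (adjusted p = 0.402), MIR101-2 by 0.04 ± 0.19 (adjusted p = 0.912) and MIR365-2 by -0.31 ± 0.20 (adjusted p = 0.262). The copies of these 3 microRNAs that were called were MIR24-2, MIR101-1 and MIR365-1, and differences between copies were not tested. In the miR-103 and miR-107 family, MIR103 at 1.88 stood beside MIR107A at 0.71 ± 0.21 (adjusted p = 0.00996, but 0.294 without replicate 3) and MIR107B at 0.14 ± 0.15 (adjusted p = 0.497). Where copies are near-identical, their probes could share signal.

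Many microRNAs lie within introns of other genes. By host genes known in human and matched by family name, which does not settle the copy in the horse, 81 pairs of a precursor and a host had a probe set for both, with 72 precursors and 55 hosts. In 16 pairs the precursor passed on average, and the host passed in the same direction in 7, in the opposite direction in 2 and not at all in 7. In the 65 pairs whose precursor did not pass, 20 hosts did. Against the 30.8% of all probe sets that passed, these are shares of small and partly repeated sets.

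MIR21 at 1.48 ± 0.24 stood beside VMP1, a gene of autophagy whose transcript runs towards it, at 0.59 ± 0.09 (adjusted p = 5.96e-06). MIR103 at 1.88 stood beside the pantothenate kinase genes PANK3 at 0.48 ± 0.09 (adjusted p = 8.82e-05) and PANK2 at 0.28 ± 0.09 (adjusted p = 0.0183). The call of PANK2 was lost without replicate 1 (adjusted p = 0.127) and replicate 3 (adjusted p = 0.0646). For MIR33A, a regulator of cholesterol export within the sterol regulator gene SREBF2, the order was the other way round. SREBF2 was higher by 1.11 ± 0.14 (adjusted p = 2.02e-07) and MIR33A by 0.46 ± 0.15 (adjusted p = 0.0171), which did not hold without replicate 1 (adjusted p = 0.0533) or replicate 2 (adjusted p = 0.0994). MIR25 and MIR93 at 0.44 and 0.53 had values close to that of MCM7, a DNA helicase subunit gene, at 0.38 ± 0.07. MIR106B, which has the same host in human, was smaller at 0.17 ± 0.11 and was not called (limma adjusted p = 0.264). The call of MIR25 was lost without replicate 3 (adjusted p = 0.108).

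Both opposite pairs had a precursor and a host past the threshold in different directions. MIR211 was higher by 0.81 ± 0.16 (adjusted p = 0.000153) in 15 of 15 pairs of arrays, while TRPM1, the ion channel gene that contains it in human, was lower by a difference of -0.69 ± 0.13 (adjusted p = 8.83e-05) in 14 of 15. MIR326 differed by -0.47 ± 0.11 (adjusted p = 0.001, and 0.056 without replicate 2) and the β-arrestin gene ARRB1 by 0.45 ± 0.15 (adjusted p = 0.0197). The call of ARRB1 was lost without replicate 2 (adjusted p = 0.148) and replicate 3 (adjusted p = 0.161). The widest gap between a precursor and its host was in MIR147B, which differed by -0.09 ± 0.11 (adjusted p = 0.569) at values between 2.56 and 3.88 on all arrays. Its host C1H15orf48, a mitochondrial gene induced by inflammation, was higher by 6.38 ± 0.21 (adjusted p = 1.05e-18) in 15 of 15 pairs.

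**Figure D3:**
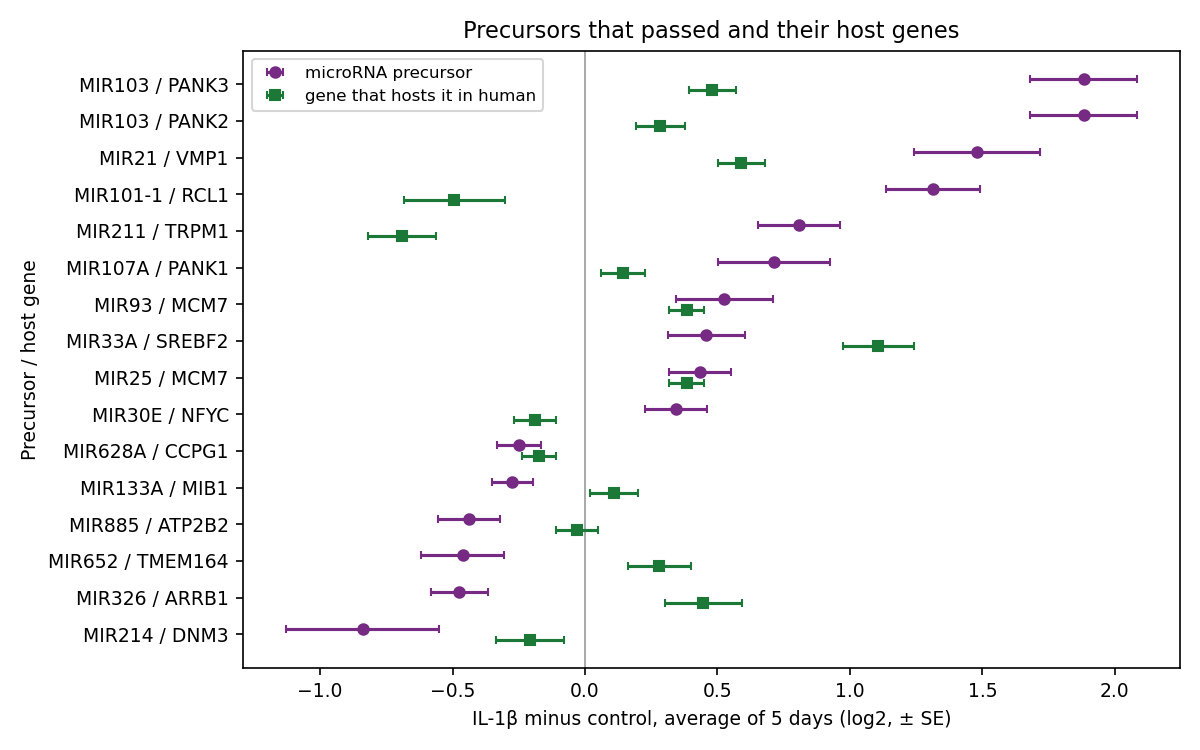
IL-1β difference averaged over 5 days (log2) with its SE for the 16 pairs whose precursor passed the test, purple circles for the precursor and green squares for the gene that hosts it, or a copy of it, in human. MIR211 and MIR326 lie on the other side of 0 from TRPM1 and ARRB1, whose calls also passed.

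The genes that process microRNAs moved in both directions. Of 28 measured genes of biogenesis and silencing, 8 were higher, 8 were lower and 12 did not pass, with a median of 0.04, where 15.6% of all probe sets were higher and 15.3% lower. DGCR8, the RNA-binding partner of Drosha, rose by 0.81 ± 0.11 (adjusted p = 6.91e-07), while DROSHA itself differed by 0.15 ± 0.08 (adjusted p = 0.152). XPO5, the export factor, rose by 0.50 ± 0.09. DICER1 fell by 0.45 ± 0.09, and its partners TARBP2 and PRKRA fell by 0.45 ± 0.07 and 0.66 ± 0.08. AGO2, the slicing Argonaute, rose by 0.65 ± 0.12, and TNRC6A, a scaffold of silencing, fell by 0.50 ± 0.06. Of the RNA-binding proteins that act on primary transcripts, HNRNPA1 fell by 0.69 ± 0.06 and DDX17 by 0.42 ± 0.05. ZC3H12A, an RNase that cuts precursor hairpins as well as cytokine messages, rose by 1.96 ± 0.11 (adjusted p = 2.99e-14). The calls of these 10 genes held without each replicate.

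By day, calls were absent at day 3 and present from day 9. At day 3, 0 of 313 members passed in limma, whereas 3.32% of all probe sets did, 1.77% higher and 1.54% lower. The unadjusted p was under 0.05 for 16 members (5.11%) and for 11.9% of all probe sets at that day. On the arrays of that day alone, limma called 2 members and 1.37% of all probe sets. Day 9 had 5 called members, 3 higher and 2 lower, against 7.54% of all probe sets, 3.91% higher and 3.63% lower. On day 15 there were 21, 13 higher and 8 lower, against 12.7%, of which 6.79% were higher and 5.88% lower. Of the 17 called on day 21, 11 were higher and 6 lower, against 12.1%, with 6.11% higher and 6.02% lower. Day 27 had 13 higher and 3 lower members, 16 in all, against 14.8%, with 8.25% higher and 6.54% lower. Leaving out the unstimulated array of that day that stood apart left 10, and the share of all probe sets fell to 10.6%. In all, 36 members passed at 1 or more days, 27 of which also passed on average. MIR101-1 and MIR222 passed at 4 of the 5 days, and 0 members at all 5, which follows from the 0 calls at day 3. Such counts of days were not made over all probe sets. The day 9 call of MIR101-1 was lost without replicate 2 (adjusted p = 0.53) and replicate 3 (adjusted p = 0.11). The day 27 call of MIR222 was lost without replicate 2 (adjusted p = 0.205) and replicate 3 (adjusted p = 0.0514). Without replicate 2, the counts from day 9 onwards were 1, 8, 6 and 5, and the shares of all probe sets were also lower, at 2.46%, 4.99%, 5.97% and 7.29%.

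At day 9, MIR197 had values of 6.87, 6.33 and 6.67 with IL-1β and of 5.53, 5.50 and 5.79 without it. The groups did not overlap, and the difference was 1.01 ± 0.19 (adjusted p = 0.000523, but 0.0617 without replicate 1). MIR197 was low in unstimulated explants at day 9 only, with means between 6.27 and 6.59 at the other days. MIR222 differed by 1.68 ± 0.41 at day 9 (adjusted p = 0.00925), but not past the threshold without replicate 2 (adjusted p = 0.165) or replicate 3 (adjusted p = 0.0523).

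At day 15, the values of MIR103 were 7.13, 6.15 and 5.42 with IL-1β and 3.23, 3.07 and 3.28 without it. All stimulated arrays were well above the unstimulated ones, by 3.04 ± 0.45 (adjusted p = 2.6e-05). MIR222 was 8.82, 8.15 and 8.07 with IL-1β and had a mean of 5.60 ± 0.69 (SD, n = 3) without it, with no overlap and a difference of 2.75 ± 0.41 (adjusted p = 3.18e-05). The difference of MIR365-1 was 1.83 ± 0.32 (adjusted p = 0.00019), between 5.59, 5.18 and 5.62 with IL-1β and 3.56, 3.86 and 3.49 without it. These 3 calls held without each replicate. Those of MIR221 at 2.15 and MIR34A at 1.83 were lost without replicate 2 (adjusted p = 0.117 and 0.0525), and that of MIR568 at -2.02 without replicate 3 (adjusted p = 0.209). MIR21 at 1.77 was lost without replicate 1 (adjusted p = 0.296) and replicate 3 (adjusted p = 0.087), and MIR421 at -1.38 without replicate 1 (adjusted p = 0.0601) and replicate 2 (adjusted p = 0.0621).

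At day 21, MIR103 differed by 2.22 ± 0.45 (adjusted p = 0.000988), MIR365-1 by 1.61 ± 0.32 (adjusted p = 0.000692) and MIR568 by -2.30 ± 0.49 (adjusted p = 0.00177). All 3 held without each replicate. The values of MIR568 were 2.52, 2.53 and 2.21 in stimulated and 5.73, 4.09 and 4.34 in unstimulated explants, so that its stimulated arrays were near the bottom of the scale. MIR221 at 2.34 and MIR222 at 1.89 were lost without replicate 1 (adjusted p = 0.123 and 0.0522). MIR1842 at 1.39 was lost without replicate 2 (adjusted p = 0.0549).

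At day 27, MIR101-1 had values of 7.71, 7.66 and 7.43 with IL-1β and of 5.43, 4.72 and 4.94 without it. Its groups were far apart, by 2.57 ± 0.40 (adjusted p = 3.51e-05), and the call held without each replicate. So did that of MIR103, which differed by 2.61 ± 0.45 (adjusted p = 0.000142). MIR24-2 differed by 2.05 ± 0.44 (adjusted p = 0.00137, but 0.0676 without replicate 3), between means of 5.21 ± 0.31 with IL-1β and 3.16 ± 0.84 without it (SD, n = 3). MIR34A at 1.66 was lost without replicate 1 (adjusted p = 0.175) and replicate 2 (adjusted p = 0.104). MIR421, at -1.10, was lost without replicate 1 (adjusted p = 0.194), replicate 2 (adjusted p = 0.0569) and the day 27 array that stood apart (adjusted p = 0.128).

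**Figure D4:**
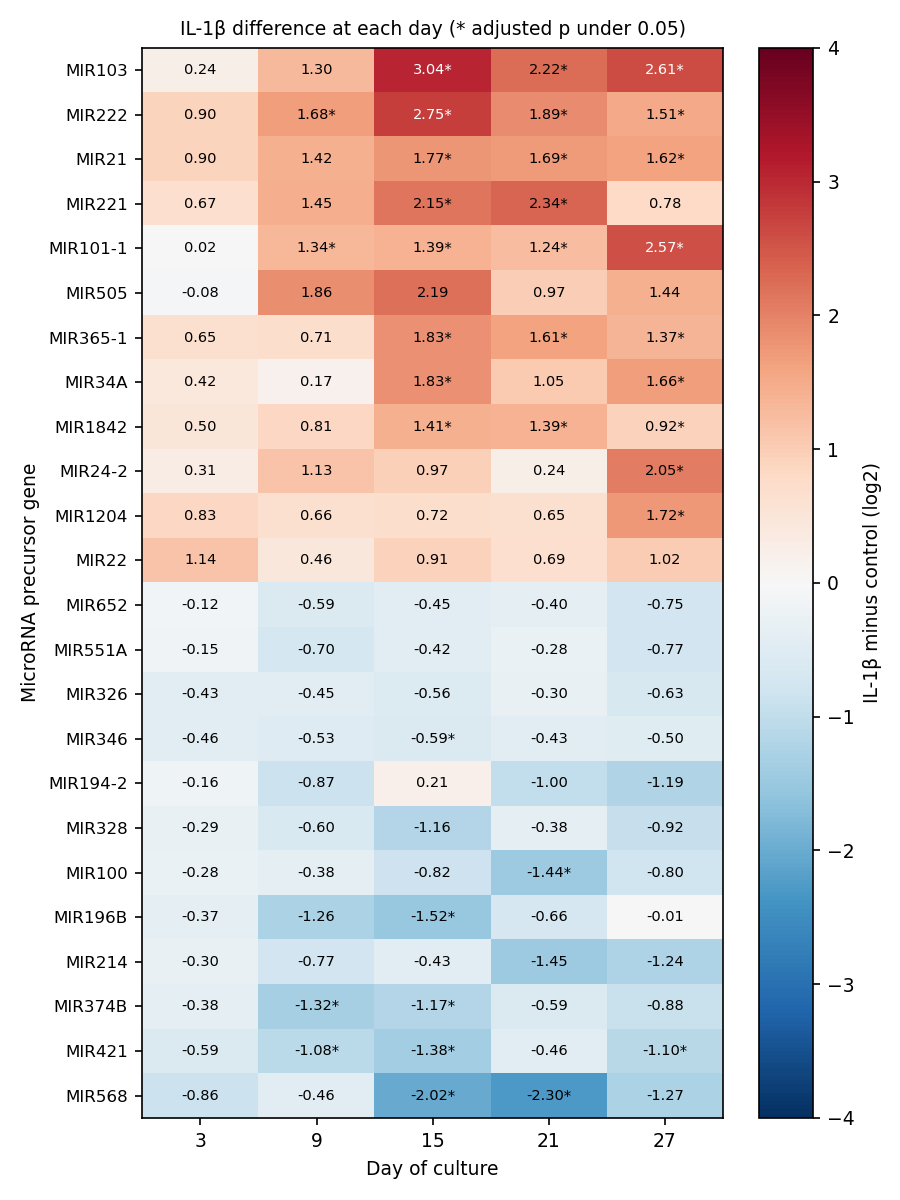
IL-1β difference (log2) at each day of culture for the 12 higher and 12 lower precursors that the naming rule takes from the average. Red cells are higher and blue cells lower with IL-1β, and an asterisk marks an adjusted p under 0.05. The column of day 3 has no asterisk, and MIR103 reaches 3.04 at day 15.

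Whether the IL-1β difference itself changed over time was tested directly. The moderated F-test over days called 0 members in limma (25 at an unadjusted p under 0.05, 7.99% against 8.51% of all probe sets) and 0.409% of all probe sets. From day 3 to day 27 the difference grew for 2 members, MIR101-1 by 2.55 ± 0.56 (adjusted p = 0.0215) and MIRLET7F by 2.16 ± 0.54 (adjusted p = 0.0485), against 1.1% of all probe sets, 0.451% higher and 0.644% lower. With the replicate block 4 members passed, against 1.91% of all probe sets with a fixed block and 1.56% with a random one. MIR101-1 moved from 0.02 to 2.57. Its call was lost without replicate 2 (adjusted p = 0.387) and replicate 3 (adjusted p = 0.183). MIRLET7F moved from -0.94 to 1.22, between values of 2.35 and 4.84 in the 12 arrays of both days, and was lost without replicate 1 (adjusted p = 0.338), replicate 2 (adjusted p = 0.468) and the day 27 array that stood apart (adjusted p = 0.0756).

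Within stimulated explants, 7 members were higher at day 27 than at day 3 and 0 were lower, against 3.28% of all probe sets, 1.47% higher and 1.81% lower. MIR101-1 rose by 2.15 ± 0.40 (adjusted p = 0.00281), from 6.15, 5.18 and 5.03 to 7.71, 7.66 and 7.43. This call was lost without replicate 2 (adjusted p = 0.181). MIR103 rose by 1.97, from a mean of 4.75 to 6.72, MIR24-2 by 1.69, MIR34A by 1.64, MIR122 by 1.54 and, outside the naming rule, MIR27A by 0.79. MIR365-1 rose from a mean of 4.37 to 5.87. Without replicate 2, 0 of the 7 passed, and the share of all probe sets fell to 0.0772% as well. The adjusted p was then 0.225 for MIR103, 0.184 for MIR24-2, 0.193 for MIR34A, 0.179 for MIR122, known as the microRNA of liver, and 0.193 for MIR365-1. Without replicate 1, calls were lost for MIR24-2, MIR34A, MIR122 and MIR365-1 (adjusted p = 0.104, 0.436, 0.441 and 0.0674). Without replicate 3, they were lost for MIR103, MIR24-2, MIR34A and MIR122 (adjusted p = 0.0733, 0.239, 0.056 and 0.115). Over all stimulated days the F-test called MIR101-1 (adjusted p = 0.0245) and MIR365-1 (adjusted p = 0.0399), against 0.903% of all probe sets. Neither was called without replicate 1 (adjusted p = 0.0843 and 0.494), replicate 2 or replicate 3.

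Unstimulated culture moved few precursors. From day 0 to day 3, 0 members passed in limma (14 at an unadjusted p under 0.05) against 0.401% of all probe sets, 0.108% higher and 0.293% lower, and from day 3 to day 27, 0 passed (19 at an unadjusted p under 0.05) against 1.01%, 0.44% higher and 0.567% lower. Over the 6 times the F-test called 4 members, MIR222, MIR197, MIR221 and MIR885, against 4.66% of all probe sets. MIR222 was 8.48, 8.80 and 9.64 at day 0, had means of 7.38 ± 0.68 at day 3 and 5.60 ± 0.69 at day 15, and returned to 7.48 ± 0.80 at day 27 (SD, n = 3). Its F-test gave an adjusted p of 0.000229, and the call held under all 13 alternatives. The stimulated means of MIR222, from 8.27 to 8.99, lay near that of day 0, 8.97, and a comparison of stimulated explants with day 0 was not tested. MIR221 went from 9.88 ± 0.47 at day 0 to 7.76 ± 1.05 at day 15 and 9.69 ± 0.92 at day 27 (adjusted p = 0.0361 in the F-test). That call was lost whichever replicate was left out (adjusted p = 0.181, 0.138 and 0.259) and without the day 27 array that stood apart (adjusted p = 0.0735). The calls of MIR197 and MIR885, with adjusted p of 0.0147 and 0.0418, were lost without replicate 1 (0.27 and 0.341) and replicate 2 (0.398 and 0.24), and that of MIR885 without replicate 3 (0.177).

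Between day 0 and day 27 of unstimulated culture, 3 members rose and 3 fell, against 5.44% of all probe sets, 2.03% higher and 3.41% lower, and the median change was 0.11 over members and 0.05 over all probe sets. Without the day 27 array that stood apart, 3 members passed, against 2.97% of all probe sets. That array had the highest value of MIR1302-1, which was 2.61, 2.79 and 2.67 at day 0 and 3.58, 3.29 and 7.17 at day 27. Its change of 1.99 ± 0.59 (adjusted p = 0.0443) was 0.74 without the array (adjusted p = 0.396). The call was also lost without replicate 1 (adjusted p = 0.123) and replicate 2 (adjusted p = 0.0979). MIR191A fell by 1.10 ± 0.25 (adjusted p = 0.00914), from 5.11, 4.86 and 5.20 to 3.81, 3.97 and 4.10. Its groups did not overlap, and the call was lost without replicate 2 (adjusted p = 0.0599) and replicate 3 (adjusted p = 0.185). MIR222 fell by 1.49 ± 0.41 (adjusted p = 0.0316) and MIR24-2 from 4.66 ± 0.08 to 3.16 ± 0.84 (SD, n = 3, adjusted p = 0.0405). Without replicate 2 these had adjusted p of 0.25 and 0.178, without replicate 3 of 0.257 and 0.467, and without the day 27 array MIR24-2 had 0.274. MIR497 rose by 0.58 ± 0.16 and MIR369 by 0.47 ± 0.14, with adjusted p of 0.207 and 0.279 without that array. The call of MIR497 was also lost without replicates 1, 2 and 3 (adjusted p = 0.0671, 0.307 and 0.316). That of MIR369 was lost without replicates 2 and 3 (adjusted p = 0.391 and 0.517). Both were lost after another quantile normalisation (adjusted p = 0.0738 and 0.0636) and after median centring (adjusted p = 0.0752 and 0.0948).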

How the data were processed

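Expression was measured with an Affymetrix array on 2 ng of total RNA per sample, per the labels' protocols. The authors deposited log2 values of 25923 probe sets on 33 arrays in 1 table. The tools named in the submitters' processing notes are limma, RMA and Affymetrix Expression Console, all without versions. The log base was inferred from the deposited values, which reach 13.9, and no genome build was needed. RMA and quantile normalisation compress low signals and remove shifts shared by most genes. Values were used as deposited, and 0 table columns lacked a sample. Gene symbols are those of GEO's platform annotation and may be out of date.

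Groups came from sample titles. Comparisons used limma 3.58.1 in R 4.3.3 (lmFit and eBayes, 1 mean per group, 22 residual degrees of freedom), with Benjamini-Hochberg adjustment across the whole table, two-sided, with 0.05 as the threshold. An exact permutation test of 3 against 3 arrays cannot go below 0.1. The fit was tested on simulated data.

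Each replicate number goes with 1 experiment prefix in the sample descriptions, from which 1 horse per number was inferred. Deviations from group means correlated at a median of 0.164 between arrays of the same number (165 pairs) and -0.0841 between different numbers (330 pairs). The lowest correlation of a stimulated and unstimulated pair was 0.0781, and for 33 of 33 arrays the best match had their own number. A batch that goes with the number would give the same.

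Named members were the 12 highest and 12 lowest on average and 6 of each in other contrasts, among called members whose difference had 1 sign in all 3 replicate numbers, up to 8 per F-test, the 8 highest signals, and fixed precursors and families. MIR211 and MIR670, named among the calls that held under every alternative, are outside this rule. So are MIR25, MIR33A and MIR106B, named beside their hosts. These were added after their values were seen. Of the biogenesis genes, the 8 of smallest p were named, and DROSHA, DICER1 and XPO5 were added after their values were seen, as were the hosts. MIR455 and MIR210 are not analysed here, nor AGO3 and AGO4. Members and lists were chosen with earlier results of these data known.

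The 13 alternatives were a fixed or random replicate block, a filter that kept probe sets above the median signal, another quantile normalisation, eBayes with trend or with trend and robust, each replicate left out, the day 27 array left out, only the groups compared, the mean of a symbol's probe sets, and arrays centred on their medians.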

Additional observations from a re-analysis of the deposited data

Results flagged for a closer look

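The IL-1β difference at day 27 was larger than that at day 3 for MIR101-1, by 2.55 ± 0.56 on the log2 scale (limma adjusted p = 0.0215), a difference between the effects at 2 time points. At day 27 the precursor was higher in stimulated explants by 2.57, and at day 3 by 0.02. The size was 3.11, 2.36 and 2.17 without replicates 1, 2 and 3, and it stayed past the threshold without replicate 1 only.

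MIRLET7F differed in the same way, by 2.16 ± 0.54 (adjusted p = 0.0485), from a difference of -0.94 at day 3 to one of 1.22 at day 27. Without replicates 1, 2 and 3 this was 2.46, 1.68 and 2.34, and it stayed past the threshold without replicate 3 only. All of its values at both days were below the median signal of all probe sets, 5.27.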

How the results depend on the processing

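Over the 13 alternatives, 30 of 108 named member values kept their direction and their side of the threshold throughout. With the replicate block, fixed or random, the growth of the difference from day 3 to day 27 was called for 4 members in place of 2, and the average for 59 and 57 in place of 51, and no named call was lost. The shares of all probe sets were higher too, at 1.91% and 1.56% in place of 1.1%, and at 34.2% and 33.1% in place of 30.8%. With only probe sets above the median signal, which tests 71 members, the counts were 25 for the average, 7 at day 21, 2 for unstimulated day 27 minus day 0, 4 for stimulated day 27 minus day 3 and 1 for the stimulated F-test. Of the probe sets tested, 52.7% then passed on average and 25.5% at day 21. In the same order, the other shares were 13.4%, 8.16% and 2.55%. Another quantile normalisation gave 3 for unstimulated day 27 minus day 0, against 5.17% of all probe sets. Without the day 27 array, day 15 gave 24, day 21 gave 18, day 27 gave 10 and unstimulated day 27 minus day 0 gave 3. The shares of all probe sets in the same order were 13.7%, 13%, 10.6% and 2.97%. Only the groups compared, a fit with fewer arrays, gave 2 at day 3, 9 at day 27, 1 for the growth of the difference, 1 for unstimulated day 27 minus day 0, 2 for stimulated day 27 minus day 3, 1 for the unstimulated F-test and 0 for the stimulated F-test. In the same order, the shares of all probe sets were 1.37%, 7.14%, 0.181%, 0.752%, 1.13%, 1.72% and 0.814%. Leaving out 1 replicate gave 28 to 47 for the average, 1 to 4 at day 9, 8 to 13 at day 15, 6 to 10 at day 21, 5 to 13 at day 27, 0 to 1 for the growth of the difference, 0 to 7 for unstimulated day 27 minus day 0, 0 to 5 for stimulated day 27 minus day 3, 1 to 3 for the unstimulated F-test and 0 to 1 for the stimulated one. The share of all probe sets was then lower in these comparisons too, for example 20.2% to 25.4% in place of 30.8% for the average and 2.46% to 4.9% in place of 7.54% at day 9.

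Averages that changed sign were all of members that did not pass. MIR223 became 0.018 after quantile normalisation and 0.0031 after median centring. Over the settings that leave out 1 replicate or the day 27 array, the averages ranged from -0.105 to 0.0234 for MIR223, from -0.0811 to 0.195 for MIR191A, from -0.0384 to 0.0664 for MIR497, from -0.070 to 0.201 for MIR101-2, from -0.0219 to 0.178 for MIR24-1, from -0.0928 to 0.194 for MIR122, from -0.512 to 0.252 for MIR140, from -0.098 to 0.585 for MIRLET7F, from -0.377 to 0.0926 for MIR1302-1 and from -0.233 to 0.0544 for MIR147B. The cause of these changes was not tested. Low signals limit most members, since 242 of 313 lie at or below the median signal and detection above background was not assessed.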
